A study of Homo sapiens with 6 samples.

Results

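The nuclear genes for the subunits of oxidative phosphorylation (OXPHOS) were followed in cholangiocarcinoma cells treated with regorafenib, an oral multikinase inhibitor. The members were taken from the array's annotation: every probe set with exactly 1 gene symbol that began with NDUFA, NDUFB, NDUFC, NDUFS or NDUFV and a digit, with UQCR, with COX4I, COX5, COX6, COX7 or COX8, or with ATP5F1, ATP5M or ATP5P, and those of the SDH genes A to D. This gave 147 probe sets of 75 genes, out of 54613 probe sets and 19775 genes that had a probe set of their own. Complex I held 32 genes with 61 probe sets, complex II 3 genes with 10, complex III 6 genes with 13, complex IV 17 genes with 28 and complex V 17 genes with 35. Assembly factors, and 6 probe sets of 5 pseudogenes, antisense or divergent transcripts, were left out, as were 14 probe sets whose annotation joined several symbols, among them those of NDUFS8, NDUFC2, NDUFS5 and UQCRH. Of the 75 genes, 42 had a brightest probe set whose suffix marks a match to several transcripts or genes, so that related copies may add to their signals. NDUFA4 and NDUFA4L2 stood in the annotation as COXFA4 and COXFA4L2 and were not members.

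OXPHOS takes place at the inner mitochondrial membrane. Complex I accepts electrons from NADH and complex II from succinate, ubiquinone carries them to complex III and cytochrome c carries them to complex IV, which reduces oxygen to water. Complexes I, III and IV pump protons, and complex V, the ATP synthase, makes ATP as the protons flow back. Most subunits are nuclear-encoded and imported, while mitochondrial DNA (mtDNA) encodes part of every complex except complex II.

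The samples were 6 arrays of total RNA, 1 for each of 6 conditions. KKU-100, labelled a poorly differentiated cholangiocarcinoma line, and HuccT1, labelled a bile duct carcinoma line, were each given solvent, a low dose or a high dose of regorafenib. The labels put the doses at 1 and 10 µM, while the study's text names lower ones, so only the words low and high dose are used below, and no treatment time is labelled. They also describe all 6 samples as puromycin-selected, stably transduced cells, without naming a construct. The values are linear signal intensities, taken as log2 below, and the 6 arrays had median signals between 28.8 and 29.3. The biliary markers KRT19 and EPCAM were under the array median in KKU-100. KRT19 had signals of 9.47, 8.62 and 11.1 on the solvent, low-dose and high-dose arrays of KKU-100 cells, and 9006, 9321 and 7654 on those of HuccT1 cells. EPCAM was likewise at 8.95 to 11 in KKU-100 cells and at 6432 to 6682 in HuccT1 cells. The 9 biliary markers measured summed to between 18508 and 24513 in KKU-100 cells, where 4 of them stayed under a signal of 100, and to between 41184 and 47805 in HuccT1 cells, where none did. KRT8 and KRT18, keratins of simple epithelia, had 6345 to 8852 and 9747 to 12615 in KKU-100 cells and 4534 to 5744 and 8034 to 10753 in HuccT1 cells. KRT7 had 917 to 1227 in KKU-100 cells and 10354 to 11038 in HuccT1 cells, and SOX9 had 546 to 1059 in KKU-100 cells and 644 to 1408 in HuccT1 cells. The 15 markers of liver, blood, vessel and stromal cells summed to between 1874 and 2233 in KKU-100 cells and to between 777 and 908 in HuccT1 cells. COL3A1, a fibrillar collagen, accounted for 538 to 779 of the KKU-100 sums and ACTA2, an actin of smooth muscle, for 646 to 760, against 6.52 to 8.63 and 70.5 to 147 in HuccT1 cells.

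The first question was whether regorafenib changed the OXPHOS subunits in each line. Each gene was represented by its brightest probe set, and a change is the log2 signal at a dose minus that with solvent. With 1 array per condition, these changes had no replicate check and no p-value. A mean signal in the upper 50% of the line's probe sets was required, which 70 member genes met in KKU-100 and 72 in HuccT1. Below it in both lines were COX7A1, COX7B2 and COX8C, and below it in KKU-100 alone were COX6A2 and COX6B2. None of the member genes that passed the filter moved past 1.5-fold in any of the 4 comparisons. Among all genes tested, the share past 1.5-fold was 17.1% (low dose) and 14.3% (high dose) in KKU-100 cells, and 7.01% (low dose) and 14.7% (high dose) in HuccT1 cells.

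The members lay close to their solvent values. In RNA of a whole culture, a level that differs in every cell and a share of cells that differs cannot be told apart. In KKU-100 cells their median change was 0.02 at the low dose, with a range of -0.12 to 0.53, and 0.01 at the high dose, with a range of -0.23 to 0.38. In HuccT1 cells it was 0.09 at the low dose, with a range of -0.26 to 0.22, and 0.02 at the high dose, with a range of -0.44 to 0.25. The SD over the members was 0.12 at both doses in KKU-100 cells, 0.08 at the low dose in HuccT1 cells and 0.14 at the high dose, against SDs of 0.49, 0.44, 0.34 and 0.47 over all genes tested in the same 4 comparisons. Most members are bright on the array, and bright probe sets as a whole moved less often. Of the probe sets with a mean signal of at least 1000 in the line, 8.5% and 6.05% passed 1.5-fold at the low and high dose in KKU-100 cells, and 3.75% and 9.35% in HuccT1 cells. None of the 81 member probe sets of this brightness in KKU-100 cells, or of the 85 in HuccT1 cells, did so.

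**Figure D1:**
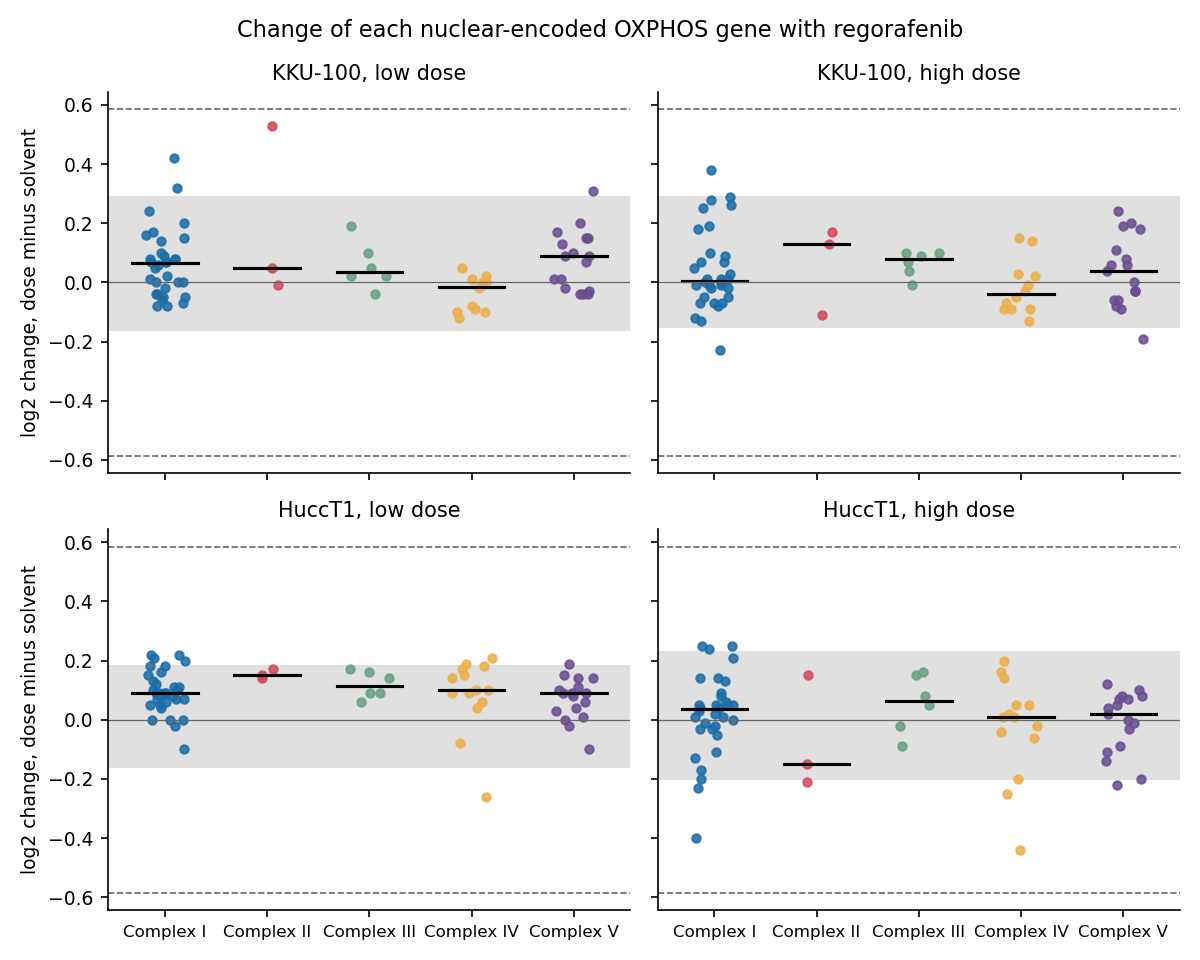
Log2 change of each member gene at the low and the high dose against the solvent array of the same line, by complex. Points are genes, black lines are medians over a complex, the grey band spans the middle 50% of all genes tested, and dashed lines mark 1.5-fold. No point lies beyond the dashed lines, and SDHA at 0.53 in KKU-100 cells at the low dose comes nearest.

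One small shift ran through most members. At the low dose in HuccT1 cells, 63 of 72 members lay above their solvent value, or 87.5%, against 52.7% of all genes tested. The members' median was 0.09 there and that of all genes 0.02. The complexes had medians of 0.09 in complex I, 0.15 in complex II, 0.12 in complex III, 0.10 in complex IV and 0.09 in complex V. Without probe sets that can match several genes, complex II was at -0.03 and complex V at -0.00. At the high dose in the same line, 43 of 72 members, or 59.7%, lay above solvent, against 52.1% of all genes. In KKU-100 cells, 43 of 70 members lay above solvent with the low dose and 37 with the high dose, against 57.7% and 57.6% of all genes. Both doses of a line were set against the same solvent array, so these counts share it. The median of 0.09 rests on 1 low-dose and 1 solvent array, with no replicate check, and stayed between 0.07 and 0.11 over the alternatives.

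Complex I is built from a hydrophilic arm that oxidizes NADH and a membrane arm that pumps protons. Its 32 genes had medians of 0.06 and 0.00 at the low and high dose in KKU-100 cells and 0.09 and 0.03 in HuccT1 cells. NDUFS3, a core subunit of the arm that passes electrons to ubiquinone, had signals of 712, 955 and 925 with solvent, low dose and high dose in KKU-100 cells, and 2440, 2562 and 2520 in HuccT1 cells. Both treated KKU-100 arrays were above the solvent one, with changes of 0.42 and 0.38, while the HuccT1 changes were 0.07 and 0.05. NDUFB5, an accessory subunit of the membrane arm, was above solvent on all 4 treated arrays, with signals of 2015, 2269 and 2303 in KKU-100 cells and 2231, 2584 and 2650 in HuccT1 cells. NDUFS6, an accessory zinc-binding subunit, was lower at the high dose in both lines. Its signals were 3666, 3656 and 3117 in KKU-100 cells and 4933, 4932 and 4507 in HuccT1 cells, so that the low dose sat at the solvent level. NDUFV1, which binds FMN and NADH, stood above solvent by 0.15 and 0.07 in KKU-100 cells and by 0.20 and 0.24 in HuccT1 cells. The lowest value of the complex was that of NDUFB3, a small membrane-arm subunit, at -0.40 for the high dose in HuccT1 cells, where it was at 1411 against 1862 with solvent. In KKU-100 cells NDUFB3 changed by 0.01 and -0.05.

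Complex II, succinate dehydrogenase, also belongs to the TCA cycle, and no subunit of it comes from mtDNA. SDHA, its flavoprotein, had signals of 781, 1130 and 879 with solvent, low dose and high dose in KKU-100 cells, and 1619, 1821 and 1464 in HuccT1 cells. The low dose was the highest array of each line, with changes of 0.53 in KKU-100 cells and 0.17 in HuccT1 cells, and the high-dose changes were 0.17 and -0.15. The probe set carries the suffix for probes that can match related sequences, and SDHA has pseudogene copies, so its level is uncertain. Another probe set, annotated to SDHA together with SDHAP1, SDHAP2 and SDHAP4 and thus no member, was highest with solvent in both lines. It changed by -0.11 and -0.18 in KKU-100 cells and by -0.33 and -0.46 in HuccT1 cells. SDHC and SDHD, the membrane anchors that bind ubiquinone, stayed nearer to solvent. SDHC changed by -0.01 and -0.11 in KKU-100 cells and by 0.14 and -0.21 in HuccT1 cells. SDHD changed by 0.05 and 0.13 in KKU-100 cells and by 0.15 at both doses in HuccT1 cells. SDHB was not analysed here.

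Complex III had the smallest spread at the high dose in KKU-100 cells. Its 6 genes ran from -0.01 to 0.10 there, with a median of 0.08, and from -0.09 to 0.16 in HuccT1 cells, with a median of 0.07 that was -0.02 without probe sets that can match several genes and -0.05 with the median over probe sets. UQCRC1, a core protein of the complex, stood above solvent by 0.10 at both doses in KKU-100 cells, and by 0.14 and 0.16 in HuccT1 cells. UQCRC2, the other core protein, changed by 0.19 and 0.07 in KKU-100 cells and by 0.06 and -0.02 in HuccT1 cells. The small subunits UQCRB, UQCRQ, UQCR10 and UQCR11 lay between -0.09 and 0.17 in all 4 comparisons.

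Complex IV, cytochrome c oxidase, was the only complex with medians below 0 in KKU-100 cells, at -0.01 for the low and -0.04 for the high dose, with 4 of 12 genes above solvent at each. The low-dose median stayed between -0.06 and -0.00 over the alternatives and the high-dose one between -0.06 and 0.01, with the value above 0 from the median over the probe sets of a gene. Other complexes also fell below 0 in KKU-100 cells under some alternatives, complex V to -0.01 at the low dose and complex II to -0.08 at the high dose. In HuccT1 cells its medians were 0.10 and 0.01 over 14 genes. COX8A, a small membrane subunit, had signals of 5082, 4667 and 4788 with solvent, low dose and high dose in KKU-100 cells, and 6671, 7089 and 7643 in HuccT1 cells. Both treated arrays were thus under solvent in KKU-100 cells and over it in HuccT1 cells. COX6A1 did the same, with 7676, 7256 and 7307 in KKU-100 cells and 6233, 6896 and 6875 in HuccT1 cells. COXFA4, known as NDUFA4 and held to be a subunit of complex IV though not a member here, had changes of -0.11 and -0.09 in KKU-100 cells and 0.11 and 0.16 in HuccT1 cells.

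Several complex IV subunits exist as isoforms, of which one is made in most tissues and the other in muscle, lung or testis. The widely made isoforms COX4I1, COX6B1 and COX7A2 had signals between 2422 and 7524 on all arrays. COX4I2, the isoform known from lung and from low oxygen, had signals of 29.7 to 31.6 in KKU-100 cells and 35 to 41.6 in HuccT1 cells, near the array median. COX6A2 and COX7A1, known from heart and skeletal muscle, had signals between 25 and 32.5 and between 11.5 and 14.2 over the 6 arrays. COX6B2, COX7B2 and COX8C, known from testis, ranged from 17.6 to 43.9, from 11.3 to 23.2 and from 5.78 to 8.82. The highest signal of any of these 5 isoforms on an array was thus 43.9. The lowest member change among those tested, -0.44 at the high dose in HuccT1 cells, was that of COX6B2, at 32.4 against 43.9 with solvent. COX7A2L, which takes part in joining complexes III and IV, changed by -0.10 and 0.15 in KKU-100 cells and by 0.04 and 0.16 in HuccT1 cells. COXFA4L2, known as NDUFA4L2 and as a target of hypoxia-inducible factor, had signals of 32 to 38.3 in KKU-100 cells and 19.6 to 27.2 in HuccT1 cells.

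In complex V, a peripheral stalk holds the catalytic F1 head in place while a ring of c subunits turns. The 17 genes had medians of 0.09 and 0.04 in KKU-100 cells and 0.09 and 0.02 in HuccT1 cells, and without probe sets that can match several genes the low-dose medians were -0.01 and -0.00. Of the peripheral stalk, ATP5PD (subunit d) had signals of 4426, 5080 and 5012 with solvent, low dose and high dose in KKU-100 cells, and 6903, 7682 and 7496 in HuccT1 cells. All 4 treated arrays were above their solvent array, with changes of 0.20 and 0.18 in KKU-100 cells and 0.15 and 0.12 in HuccT1 cells. ATP5PO, the oligomycin sensitivity conferring protein at the top of the stalk, had 3686, 4572 and 4203 in KKU-100 cells and 5029, 5541 and 5266 in HuccT1 cells, again with the low dose highest in both. The stalk subunits ATP5PB and ATP5PF changed by 0.13 and 0.06 and by 0.15 and 0.20 in KKU-100 cells, and by 0.06 and 0.08 and by 0.03 and -0.03 in HuccT1 cells. In the F1 head, ATP5F1A and ATP5F1B (alpha and beta) stayed within -0.09 and 0.09. ATP5MC1, ATP5MC2 and ATP5MC3 encode the same mature c subunit behind different import sequences. Their high-dose changes were -0.06, 0.11 and -0.08 in KKU-100 cells and -0.22, 0.10 and -0.09 in HuccT1 cells. ATP5MF, subunit f, was represented only by a dim probe set with signals of 30.2 to 35.7. A bright probe set that names it together with ARMC2-AS1 was left out, and its 4 changes lay between -0.11 and 0.09.

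**Figure D2:**
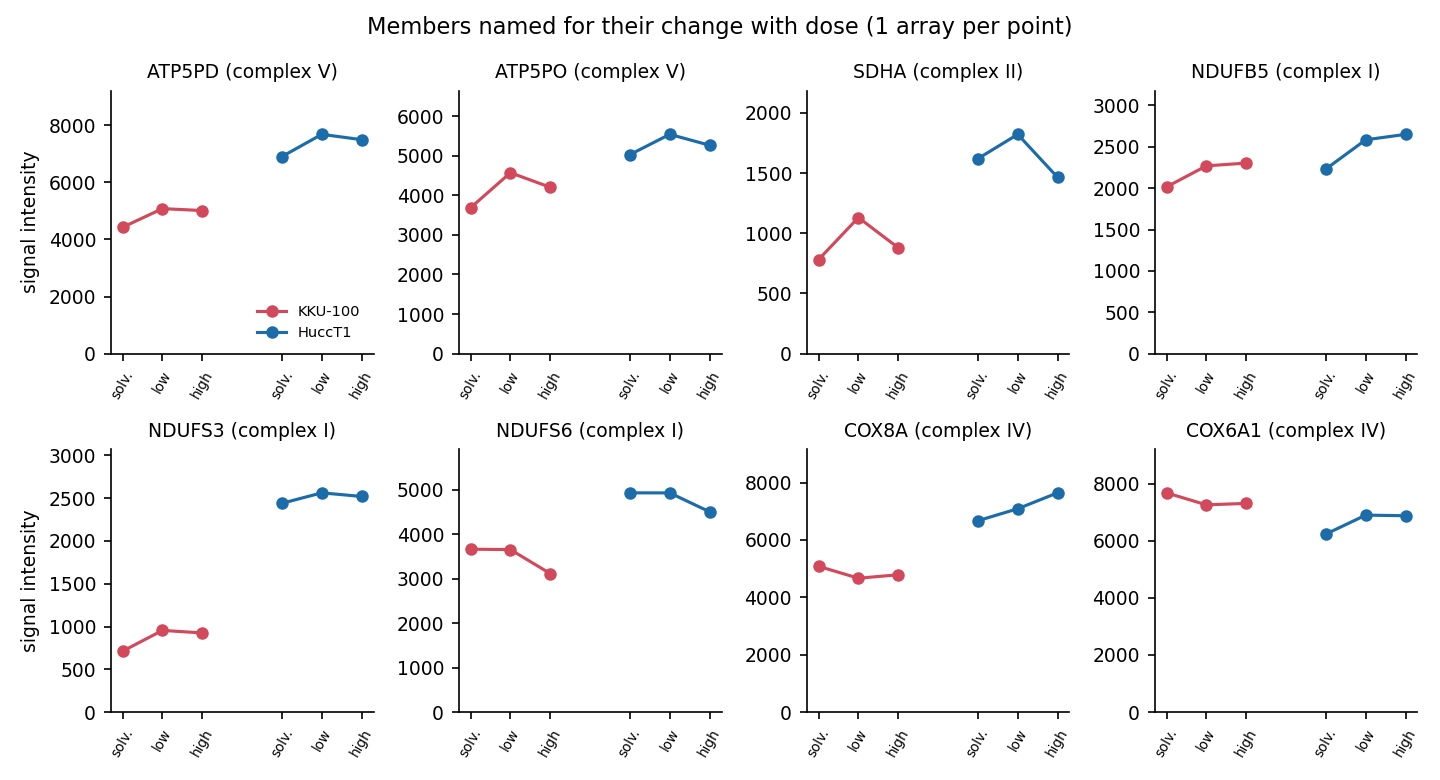
Signal intensity (linear scale from 0) of 8 members with solvent, low dose and high dose, KKU-100 at left and HuccT1 at right of each panel, 1 array per point. SDHA peaks at the low dose in both lines (1130 in KKU-100, 1821 in HuccT1), NDUFS6 is lowest at the high dose in both (3117 and 4507), and COX8A and COX6A1 move in opposite directions in the lines.

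Second probe sets of the members were also read. Among all member probe sets past the filter, 125 in KKU-100 and 123 in HuccT1, 6 passed 1.5-fold in a comparison, and each was a dim second probe set of a gene whose brightest one did not. None of the 123 did so at the low dose in HuccT1 cells, against 7.55% of all probe sets. At the high dose in HuccT1 cells 4 were lower, against 7.58% of all probe sets in that direction. They belonged to COX7B (29.8 against 51.0 with solvent), ATP5F1E (21.4 against 36.7), ATP5PB (27.1 against 41.3) and ATP5MC3 (90.1 against 136). The brightest probe sets of these genes changed by -0.06, 0.07, 0.08 and -0.09 in the same comparison. In KKU-100 cells, 1 probe set of NDUFA2 was higher at the low dose (42.7 against 28.3), where 8.41% of all probe sets were, and 1 of NDUFA7 at the high dose (116 against 74.9), where 8.28% were. Second probe sets with a mean signal of at least 500 had SDs of 0.15 at both doses in KKU-100 cells and of 0.07 and 0.06 in HuccT1 cells. Those under 500 had SDs of 0.27 and 0.24 in KKU-100 cells and of 0.21 and 0.33 in HuccT1 cells.

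For a dose effect shared by the lines, limma was fitted to the log2 signals with line and treatment as terms. The arrays of the 2 lines then serve as replicates of a dose, and p-values measure only the spread between these 6 arrays. No member had an adjusted p under 0.05 at either dose, and limma called 0% of the 27307 probe sets at each. Before adjustment, 3 of 70 member genes lay above solvent and 0 below it with a p under 0.05 for the low dose, against 10.7% of all probe sets. For the high dose 2 lay above and 1 below, against 14.9%. ATP5PD was among them at both doses, with a mean change of 0.18 ± 0.05 (SE) at the low dose (adjusted p = 0.417) and 0.15 ± 0.05 at the high dose (adjusted p = 0.298), and was above solvent on 4 of 4 treated arrays. The others at the low dose were ATP5PO, at 0.23 ± 0.07 (adjusted p = 0.417) but at -0.05 when its probe sets were summarised by their median, and SDHA, at 0.35 ± 0.13 (adjusted p = 0.458). At the high dose they were NDUFB5, at 0.22 ± 0.08, and NDUFS6, at -0.18 ± 0.07 (adjusted p = 0.307 for both). In the methods' t-test, with arrays paired by line, 2 of 70 member genes for the low dose and 7 for the high dose had an unadjusted p under 0.05. Of all 27307 probe sets, 825 lay above and 789 below solvent at that limit for the low dose, and 921 and 764 for the high dose. After adjustment 0 members passed for either dose. Of all probe sets, 0 then passed for the low dose, and 1 above and 2 below solvent for the high dose. Without the solvent array of HuccT1, limma called 1645 probe sets for the low and 639 for the high dose, and without that of KKU-100, 2 and 669. None of the member genes was among these calls.

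Whether the lines differed in their change per dose step was tested by an interaction between line and dose rank in limma. Here 0 of the 70 member genes, and 0% of all probe sets, had an adjusted p under 0.05. None of the members had an unadjusted p under 0.05, against 4.97% of all probe sets. COX8A had the smallest p, with a slope in KKU-100 cells minus that in HuccT1 cells of -0.14 ± 0.06 (SE, adjusted p = 0.887). ATP5PF, NDUFB4 and NDUFA5 had differences of 0.11 ± 0.07, 0.13 ± 0.09 and 0.16 ± 0.11, and COX6A1 of -0.11 ± 0.06, with the same adjusted p. With the median over its probe sets, COX6A1 was at 0.02.

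The lines gave more calls than the doses. Over the 3 treatments of each line, 24 of 70 member genes were higher and 23 lower in KKU-100 cells than in HuccT1 cells at an adjusted p under 0.05 in limma. Of all probe sets, 51.1% differed, with 26.1% higher and 25% lower, against 67.1% of the members, with 34.3% higher and 32.9% lower. Brightness moves with this share. Of the brightest probe sets of each gene 53.6% were called, and of all probe sets with a mean signal of at least 1000 over the 6 arrays 67.3%, against 43 of the 64 members of that brightness, or 67.2%. Without the trend in eBayes, 41.4% of the members and 49.8% of all probe sets were called, so that the order turned. Without probe sets that can match several genes the shares were 51.9% and 48.9%. In 54 of the 70 genes, or 77.1%, the 3 arrays of one line did not overlap those of the other. Among all probe sets 57.3% had no such overlap, a background that was not matched for brightness. The count of 47 fell to 28 (40%) without the low-dose array of either line and to 30 (42.9%) without the high-dose array of either. It was 43 (61.4%) without either solvent array. The shares of all probe sets called were 33.6%, 36.9% to 37%, and 53.9% in the same order. Second probe sets bear on these calls. Of 12 second probe sets with a mean signal of at least 500, belonging to 9 called genes, 12 pointed the same way and 7 were called as well. Of 13 dimmer ones, 7 pointed the same way and 3 were called in the opposite direction, those of ATP5F1C, ATP5PB and ATP5PD. In these lines the difference includes everything that sets them apart, their cell of origin and the epithelial markers given above included, whose part in the result was not tested.

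**Figure D3:**
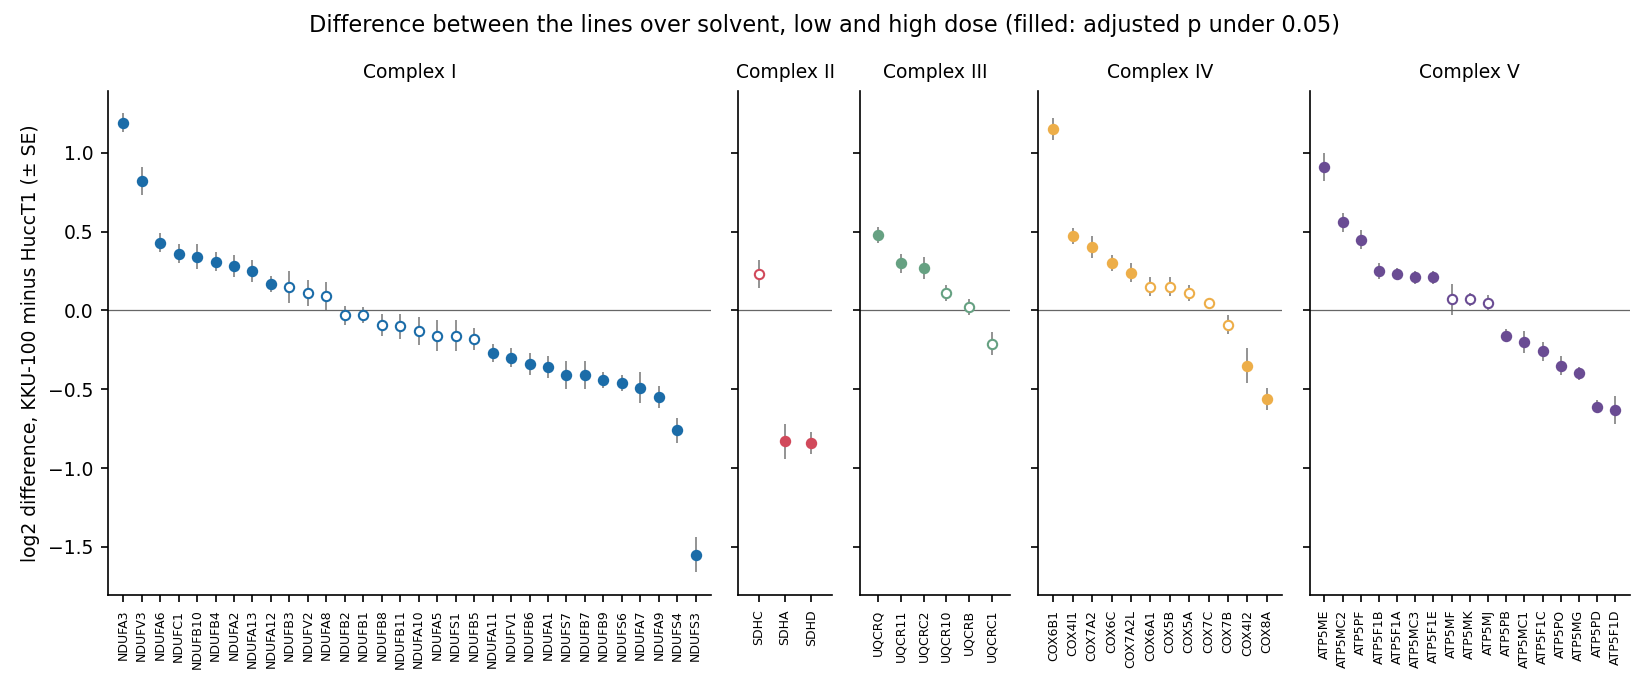
Log2 difference of each tested member gene, KKU-100 minus HuccT1 over the 3 treatments, with its limma standard error, ordered within each complex. Filled points have an adjusted p under 0.05. The differences run from 1.19 for NDUFA3 to -1.55 for NDUFS3, both in complex I, and points above and below 0 occur in all 5 complexes.

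Complex I was split, with 9 genes higher and 12 lower in KKU-100 cells. NDUFA3, an accessory subunit, had signals of 4825, 4815 and 4818 with solvent, low dose and high dose in KKU-100 cells, and 2032, 2156 and 2168 in HuccT1 cells. The KKU-100 arrays were all higher, with a difference of 1.19 ± 0.06 (SE, adjusted p = 0.000106), or 2.28-fold. NDUFV3, an accessory subunit near the NADH site, followed with 1611, 1903 and 1954 in KKU-100 cells and 977, 1042 and 1078 in HuccT1 cells (0.82 ± 0.09, adjusted p = 0.00105). NDUFS3, whose signals are given above, was lower by the widest margin of any member, with a difference of -1.55 ± 0.11 (adjusted p = 0.000252), or 2.93-fold higher in HuccT1 cells. A second probe set, annotated to PTPMT1 and NDUFS3 together and thus no member, had 638, 812 and 788 in KKU-100 cells and 1140, 1246 and 1226 in HuccT1 cells. NDUFS4, an accessory subunit of the NADH-oxidizing arm, was lower too, with 1431, 1450 and 1618 in KKU-100 cells and 2306, 2582 and 2736 in HuccT1 cells (-0.76 ± 0.08, adjusted p = 0.000843). The catalytic subunit NDUFV1 and the iron-sulfur subunit NDUFS7 were also lower in KKU-100 cells, by -0.30 ± 0.06 and -0.41 ± 0.09, whereas NDUFS1, at -0.16 ± 0.10, and NDUFV2, at 0.11 ± 0.08, did not pass the test.

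Complex II was lower in KKU-100 cells in 2 of its 3 genes. SDHD had 1455, 1502 and 1592 in KKU-100 cells and 2524, 2791 and 2809 in HuccT1 cells, a difference of -0.84 ± 0.07 (SE, adjusted p = 0.000543). SDHA, with the signals given above, differed by -0.83 ± 0.11 (adjusted p = 0.00228), and no KKU-100 array reached the lowest HuccT1 array in either gene. SDHC differed by 0.23 ± 0.09 (adjusted p = 0.08), and its arrays overlapped. Its second probe sets with a mean signal of at least 500 lay between 0.09 ± 0.10 and 0.30 ± 0.11. Dimmer ones, with mean signals of 127 and 71, were at -1.38 ± 0.15 and -1.18 ± 0.22. Bright and dim probe sets of SDHC thus pointed in opposite directions. In complex III, 3 genes were higher and 0 lower in KKU-100 cells. UQCRQ, UQCR11 and UQCRC2 differed by 0.48 ± 0.05, 0.30 ± 0.06 and 0.27 ± 0.07. A second bright probe set of UQCRC2 differed by only 0.07 ± 0.10 (limma adjusted p = 0.607). A dim one of UQCR11, with a mean signal of 156, differed by 0.06 ± 0.18 (limma adjusted p = 0.825).

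In complex IV, 5 genes were higher and 2 lower in KKU-100 cells. COX6B1, which lies on the face where cytochrome c binds, had 6151, 6215 and 5952 in KKU-100 cells and 2777, 3116 and 2422 in HuccT1 cells, without overlap (1.15 ± 0.07, adjusted p = 0.000208). COX4I1, COX7A2, COX6C and COX7A2L were higher by 0.47 ± 0.05, 0.40 ± 0.07, 0.30 ± 0.05 and 0.24 ± 0.06. COX8A was lower (-0.56 ± 0.07, adjusted p = 0.0016), as was the dim isoform COX4I2 (-0.35 ± 0.11, adjusted p = 0.0413). In complex V, 7 genes were higher and 7 lower. ATP5ME, the membrane subunit e, had 4305, 4331 and 4549 in KKU-100 cells and 2340, 2585 and 2121 in HuccT1 cells (0.91 ± 0.09, adjusted p = 0.000706). ATP5MC2 had 4545, 4874 and 4917 in KKU-100 cells and 3019, 3445 and 3241 in HuccT1 cells (0.56 ± 0.06, adjusted p = 0.000819). ATP5F1D, the delta subunit of the F1 head, was lower, with 936, 1040 and 960 in KKU-100 cells and 1469, 1573 and 1488 in HuccT1 cells (-0.63 ± 0.09, adjusted p = 0.0025), and so was ATP5PD (-0.61 ± 0.04, adjusted p = 0.000301). Subunits of the same complex, and even of the same stalk, thus lay on both sides of 0, since ATP5PF was higher by 0.45 ± 0.06 where ATP5PD, ATP5PO and ATP5PB were lower. The difference did not pass the test for NDUFV3 without probe sets that can match several genes, or for NDUFS4 and ATP5MC2 as the median over the probe sets of the gene.

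**Figure D4:**
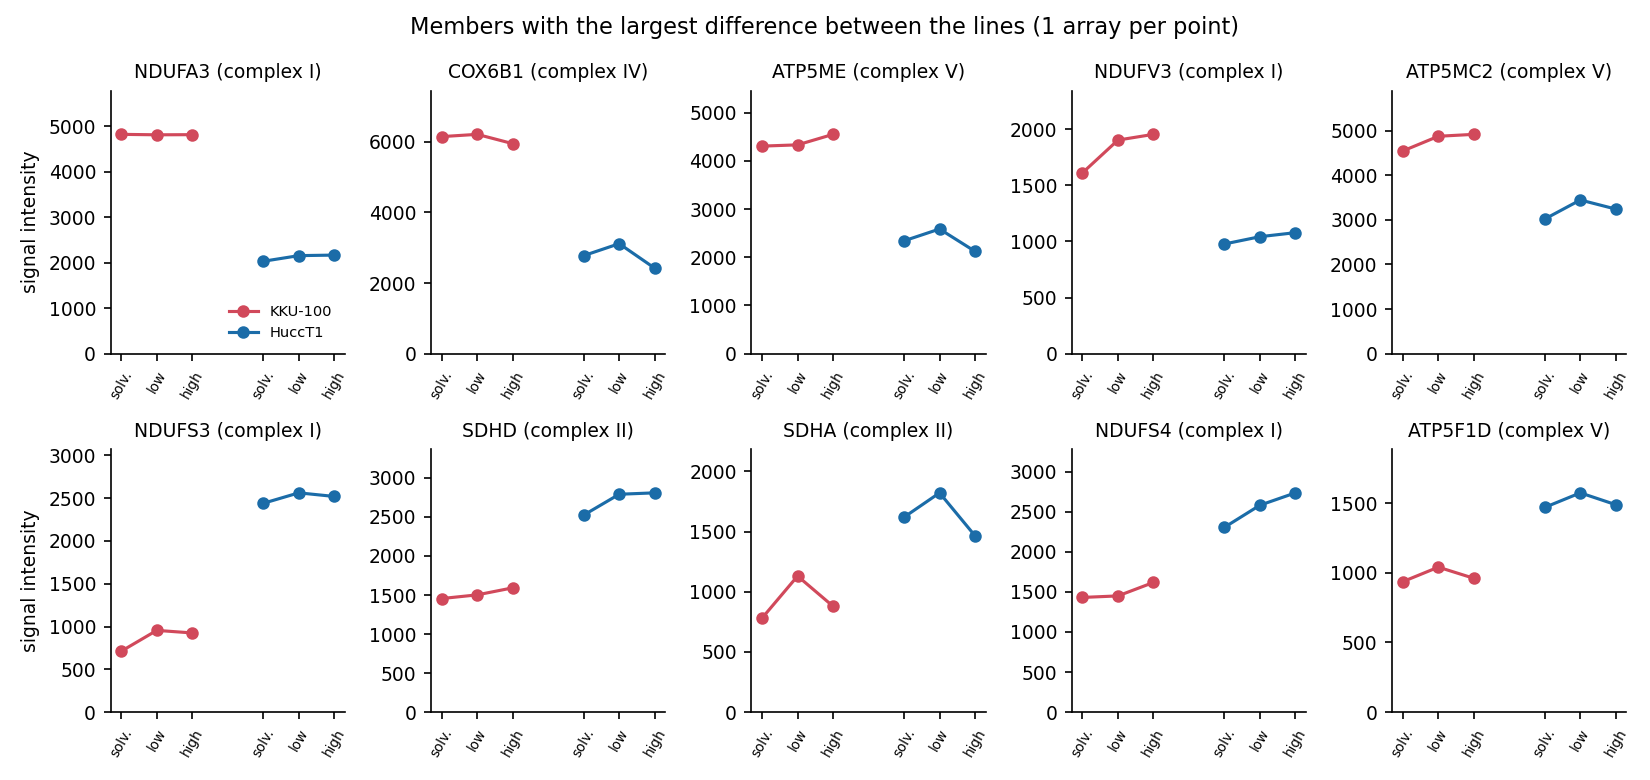
Signal intensity (linear scale from 0) of the 5 members most above (top row) and the 5 most below HuccT1 (bottom row) in KKU-100 cells, with solvent, low and high dose, KKU-100 at left of each panel, 1 array per point. The arrays of the lines overlap in none of the 10 panels, as for NDUFA3 (4815 to 4825 in KKU-100, 2032 to 2168 in HuccT1).

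Promoters were available for 64 of the 75 member genes in a RefSeq table of human genome build GRCh38.p14, with 250 bases before and 50 after each start. Nuclear respiratory factor 1, ETS factors such as GABP, and YY1 are known regulators of respiratory chain genes. The NRF1 motif GCGCATGCG was found on either strand in 11 of the 64 genes, or 17.2%, against 3.11% of 15842 protein-coding genes in the table. The ETS motif CCGGAAG was found in 19, or 29.7%, against 16.5%, and the YY1 motif AAGATGGC in 11, or 17.2%, against 4.66%. The amino acid response motif TGATGNAA, bound by ATF4, was found in 2, or 3.12%, against 3.6%. A match describes these letters only. Of the members, 60 tested genes had a promoter. For the NRF1, ETS and YY1 motifs, the widest gap in a dose comparison between the medians with and without a motif was that of the NRF1 motif for the high dose in KKU-100 cells, with 0.08 for the 11 genes that held it and 0.00 for the 49 that did not. The line difference had a median of -0.21 in the 11 genes with the YY1 motif and 0.09 in the 49 without, and of 0.15 in the 19 with the ETS motif and -0.03 in the 41 without. These gaps were not tested. The promoters of 5 genes with large differences between the lines are shown, NDUFA3, COX6B1 and ATP5ME as higher and NDUFS3 and SDHD as lower in KKU-100 cells, each from 200 bases before the start to 30 after it, 5′ to 3′ on the gene's strand, with the motifs in capitals.
NDUFA3, chr19:54102655-54102884, plus strand, YY1 motif: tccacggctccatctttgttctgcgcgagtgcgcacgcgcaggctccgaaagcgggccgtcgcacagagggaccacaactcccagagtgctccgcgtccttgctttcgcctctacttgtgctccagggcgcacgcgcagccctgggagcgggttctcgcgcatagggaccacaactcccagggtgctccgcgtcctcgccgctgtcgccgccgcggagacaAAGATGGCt
COX6B1, chr19:35648123-35648352, plus strand, ETS motif: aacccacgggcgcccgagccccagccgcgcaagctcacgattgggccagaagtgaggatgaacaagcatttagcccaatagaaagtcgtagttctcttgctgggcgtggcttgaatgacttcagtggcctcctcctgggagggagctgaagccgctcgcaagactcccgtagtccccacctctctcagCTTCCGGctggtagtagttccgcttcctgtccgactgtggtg
ATP5ME, chr4:674247-674476, minus strand, NRF1 and ETS motifs: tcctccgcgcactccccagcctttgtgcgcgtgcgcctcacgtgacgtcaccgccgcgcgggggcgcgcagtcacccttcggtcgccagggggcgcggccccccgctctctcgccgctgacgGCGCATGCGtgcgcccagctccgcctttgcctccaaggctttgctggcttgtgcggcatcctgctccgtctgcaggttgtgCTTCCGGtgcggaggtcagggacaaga
NDUFS3, chr11:47578874-47579103, plus strand, ETS motif at 2 places: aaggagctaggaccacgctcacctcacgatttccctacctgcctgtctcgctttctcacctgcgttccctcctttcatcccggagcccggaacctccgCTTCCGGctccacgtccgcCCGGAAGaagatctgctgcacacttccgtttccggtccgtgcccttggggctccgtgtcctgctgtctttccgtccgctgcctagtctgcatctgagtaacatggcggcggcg
SDHD, chr11:112086673-112086902, plus strand, overlapping NRF1 motifs and an ETS motif: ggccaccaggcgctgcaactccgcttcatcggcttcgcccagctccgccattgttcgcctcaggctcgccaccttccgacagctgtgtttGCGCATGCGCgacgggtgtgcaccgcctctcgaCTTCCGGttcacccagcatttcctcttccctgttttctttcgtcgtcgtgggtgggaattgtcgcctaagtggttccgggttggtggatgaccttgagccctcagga
Genes higher and genes lower in KKU-100 cells both carried the ETS and the NRF1 motif, and the YY1 motif of NDUFA3 was not in the other 4.

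Only some of the subunits encoded in mtDNA were followed here, 7 in number and none of complex III. At the high dose 6 of these 7 in KKU-100 cells and 4 in HuccT1 cells lay above solvent. Past 1.5-fold higher were 1 and 2, where 9.44% and 8.23% of all genes were. Their list was compared by counts alone, and limma called none of its genes at either dose. Their probe sets may also match copies of mtDNA in the nuclear genome. COX1, the catalytic core of complex IV, had signals of 7919, 7686 and 15444 with solvent, low dose and high dose in KKU-100 cells, and 9328, 7654 and 14986 in HuccT1 cells. The high-dose array was the highest of each line, with changes of 0.96 and 0.68, and a common change of 0.82 (limma adjusted p = 0.105). ND2, a pump subunit of complex I, changed by 0.27 in KKU-100 cells and 0.59 in HuccT1 cells, ND4 by 0.21 and 0.30, and ATP6 of complex V by 0.16 and 0.15. COX2 and COX3 of complex IV changed little, by 0.07 and 0.15 in KKU-100 cells and by -0.03 and -0.09 in HuccT1 cells. ND6, which lies on the other mtDNA strand, was lower, with 349, 280 and 274 in KKU-100 cells and 385, 238 and 309 in HuccT1 cells. At the low dose the list's medians were -0.12 in KKU-100 cells and -0.14 in HuccT1 cells, and at the high dose 0.16 and 0.15. Beside them, the nuclear-encoded members of complex IV had high-dose medians of -0.04 and 0.01. The difference between the lists was not tested.

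Lists of other nuclear genes of the mitochondrion differed from the subunits in their medians, by differences that were not tested, and limma called none of their genes at either dose. In KKU-100 cells every such list had a higher median than the subunits at both doses, except the biogenesis regulators at the low dose. In HuccT1 cells every one had a lower median than the subunits at the low dose. The 75 mitochondrial ribosomal proteins, which translate the mtDNA-encoded subunits, had medians of 0.26 and 0.23 at the low and high dose in KKU-100 cells, with 70 and 65 genes above solvent. Of them 9 and 5 were past 1.5-fold higher, where 9.75% and 9.44% of all genes were, so that these counts lay near or under the background. In HuccT1 cells their medians were -0.09 and -0.06, with 17 and 23 genes above solvent. MRPS26 had signals of 695, 1162 and 1114 in KKU-100 cells and 1381, 1166 and 1104 in HuccT1 cells. Other OXPHOS genes, 16 in number, were mainly electron carriers and enzymes of ubiquinone synthesis. Of these 16, 4 and 2 were past 1.5-fold higher in KKU-100 cells, where 9.75% and 9.44% of all genes were. In HuccT1 cells 0 and 2 were, against 471 of 12789 genes for the low dose and 8.23% for the high dose. COQ5, a methyltransferase of ubiquinone synthesis, had 263, 415 and 525 in KKU-100 cells and 789, 1001 and 1041 in HuccT1 cells. COQ4 had 356, 359 and 515 in KKU-100 cells and 399, 416 and 621 in HuccT1 cells, so that only the high dose stood apart in both.

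Assembly factors had higher medians in KKU-100 than in HuccT1 cells, a difference that was not tested. The 18 factors for complex I had medians of 0.16 and 0.11 in KKU-100 cells and 0.00 and -0.08 in HuccT1 cells, with 16 and 11 genes above solvent in KKU-100 cells and 10 and 6 in HuccT1 cells. Their largest change at the high dose in HuccT1 cells was that of NDUFAF4, at 910, 632 and 574 (-0.66), against 824, 771 and 739 in KKU-100 cells. The 39 factors for complexes II to V had medians of 0.08 and 0.12 in KKU-100 cells and 0.01 and -0.04 in HuccT1 cells. PET117, a factor for complex IV, had 627, 1234 and 1348 in KKU-100 cells and 1219, 1154 and 1541 in HuccT1 cells. COX19, which serves copper delivery to complex IV, was higher at the high dose alone, with 81.5, 62.6 and 151 in KKU-100 cells and 57.5, 59.1 and 140 in HuccT1 cells.

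Among regulators of mitochondrial biogenesis and mtDNA expression, 24 genes were tested in HuccT1 cells. With the low dose 4 and with the high dose 5 were past 1.5-fold lower, where 3.32% and 6.44% of all genes were. Past 1.5-fold higher were 0 and 1, against 471 of 12789 genes for the low dose and 8.23% for the high dose. In KKU-100 cells 4 and 2 of 25 were lower, where 7.32% and 4.86% of all genes were. At each dose 3 were higher, where 9.75% and 9.44% of all genes were. MYC, a transcription factor that drives growth genes, had 874, 1098 and 790 in KKU-100 cells and 2480, 1149 and 787 in HuccT1 cells, with changes of 0.33 and -0.15 in KKU-100 cells and -1.11 and -1.66 in HuccT1 cells. TWNK, the mtDNA helicase, had 257, 220 and 176 in KKU-100 cells and 444, 229 and 200 in HuccT1 cells. PPRC1, a coactivator of nuclear respiratory genes, had 278, 313 and 302 in KKU-100 cells and 433, 260 and 231 in HuccT1 cells. GABPB1, the partner of the ETS factor GABPA, had 556, 229 and 291 in KKU-100 cells and 386, 333 and 486 in HuccT1 cells. The OXPHOS subunits beside them kept medians between 0.01 and 0.09. The TCA cycle list had medians of 0.19 and 0.07 in KKU-100 cells and 0.03 and 0.02 in HuccT1 cells, and the chaperones and proteases 0.20 and 0.15 in KKU-100 cells and -0.04 and 0.05 in HuccT1 cells.

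**Figure D5:**
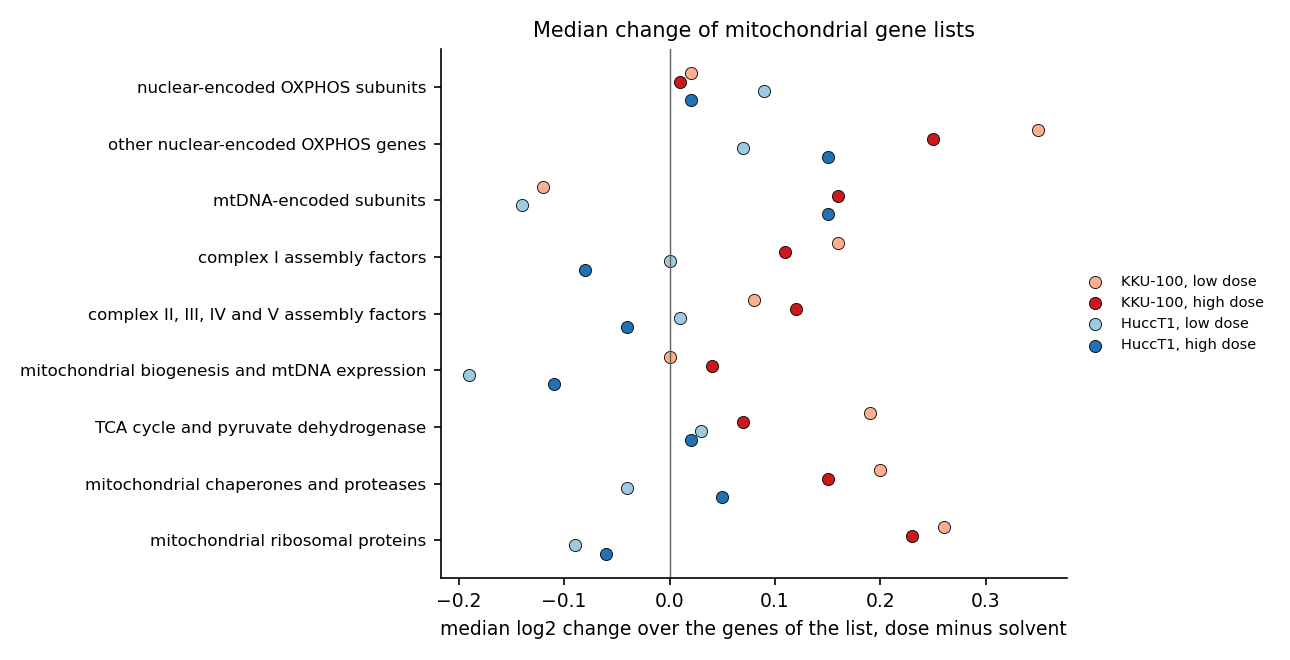
Median log2 change over the tested genes of 9 mitochondrial gene lists, dose minus solvent, for both doses in KKU-100 (reds) and HuccT1 (blues). The nuclear-encoded subunits at the top lie between 0.01 and 0.09, the mtDNA-encoded ones below 0 at the low and above 0 at the high dose in both lines, and the mitochondrial ribosomal proteins at 0.26 and 0.23 in KKU-100 cells but at -0.09 and -0.06 in HuccT1 cells.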

How the data were processed

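Total RNA of 6 samples was hybridised to Affymetrix arrays, 1 per condition. Per the labels, the authors made the values with MAS5, whose version and settings are not given in the sources used here, and the deposited linear signal intensities were used. Without the 62 control probe sets, signals were log2 transformed and not rescaled. Gene symbols came from the array's annotation (41091 probe sets with 1 symbol, 1801 with several, 11721 with none). MAS5 scaling sets only the overall level of an array, so changes are relative to it, and the number of arrays limits the precision.

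Samples were grouped by the labels' line and treatment. Folds used a cutoff of 1.5. Dose, line and interaction effects came from limma 3.58.1, run in R 4.3.3 (eBayes with trend, 2 residual and 3.41 prior degrees of freedom, 3.61 for the interaction), with Benjamini-Hochberg adjustment over 27307 probe sets in the upper 50% by mean. The script was tested on simulated data. Python 3.11.15 (numpy 2.4.6, pandas 2.3.3) served for the rest. Named members were those with the smallest p at each dose or in the interaction, the largest line differences, the isoforms and the SDH genes, and of each other list the genes with the largest high-dose change in the same direction at both doses; others were named after their values were seen. Members, lists and tests were chosen with earlier results of these data known. Alternatives covered normalization, filters, probe sets, eBayes settings, the fold cutoff and left-out arrays.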

Additional observations from a re-analysis of the deposited data

Results flagged for a closer look

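The changes of 4 members and 1 list pointed in opposite directions in the lines at both doses, by at least 0.05 on the log2 scale each. The share of all genes that meet this rule was not computed, so the count of 4 has no background. The differences given here are means over the doses, KKU-100 minus HuccT1. COX8A differed by -0.25, with changes of -0.12 and -0.09 in KKU-100 cells and 0.09 and 0.20 in HuccT1 cells. COX6A1 differed by -0.22, with -0.08 and -0.07 in KKU-100 cells and 0.15 and 0.14 in HuccT1 cells. NDUFA10 differed by -0.18, with changes of -0.07 at both doses in KKU-100 cells and 0.09 and 0.13 in HuccT1 cells, and its interaction slope differed by -0.10 (limma adjusted p = 0.91). For COX8A and COX6A1, the limma interaction with dose rank had an adjusted p of 0.887, with slope differences of -0.14 and -0.11. COX7A1 differed by 0.37, with signals of 11.8, 12.8 and 12.4 in KKU-100 cells and 14.2, 11.5 and 12.1 in HuccT1 cells, under the level filter, and this difference was not tested. The mitochondrial ribosomal proteins differed by 0.32 in their median change, which was not tested either. Each difference rests on 1 array per condition, and both doses of a line share its solvent array.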

How the results depend on the processing

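The members' counts and medians were recomputed under the alternatives, where 274 of 298 values of a comparison stayed within the limits set for them. The limits were a factor of 1.5 for counts and 0.0792 for medians, the median over members of the SD moderated by eBayes. The limit for medians is as wide as many of the medians themselves, so a turn of sign can fall within it. No member was called at a dose or in the interaction under any setting. Without probe sets that can match several genes, the fold count was 1 gene for the high dose in HuccT1 cells (ATP5PB, by its dim probe set) and 1 for the low dose in KKU-100 cells (NDUFA2), also with the median over the probe sets of a gene. Without a level filter 1 probe set (ATP5PO) passed at the low dose in HuccT1 cells. With a 60th percentile filter the probe set counts were 1 for the high dose in HuccT1 cells and 0 for the low dose in KKU-100 cells, and 0 in every comparison at 2-fold. Without probe sets that can match several genes, medians at the low dose in KKU-100 cells were 0.25 for complex III and -0.01 for complex V, and in HuccT1 cells -0.03 for complex II and -0.00 for complex V at the low dose and -0.02 for complex III at the high dose. With the median over probe sets they were 0.15 for complex III at the low dose and -0.08 for complex II at the high dose in KKU-100 cells, and -0.05 for complexes II and III at the high dose in HuccT1 cells. The line count of 47 was 27 of 52 without probe sets that can match several genes, 29 without a trend in eBayes, and 28 to 43 with 1 array left out. The shares of all probe sets under these settings were 48.9%, 49.8%, and 33.6% to 53.9%. The methods' t-test gave 37, or 52.9% of the members, against 37% of all probe sets. With the median over probe sets, the low-dose change of ATP5PO was -0.05 and the interaction of COX6A1 was 0.02, opposite in sign to the values above. The cause of these shifts was not tested. NDUFA4 carries another symbol in the annotation, so its planned move between complexes became an addition of COXFA4 and COXFA4L2 to complex IV, which changed no call. That addition, the signal limits of 1000 and 500 and the backgrounds by brightness and by gene were chosen after seeing the data. Arrays were paired by line in limma and in the t-test of the doses, and no pairing by replicate number could be made, since each condition had 1 array.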
